A study of Arabidopsis thaliana with 23 samples.

Results

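The regions described here had a listed peak of acetylated histone H4 (H4ac) in every *axe1-5* library and in no wild-type library. They were selected on the H4ac peak lists of both genotypes, as the peaks of *axe1-5* mock replicate 1 that peaks of the other 3 *axe1-5* H4ac lists overlapped by at least 1 bp and that no peak of the 4 wild-type H4ac lists touched. Windows around the centromeres were left out, at 12.5 to 17.0 Mb of chromosome 1, 1.5 to 6.5 Mb of chromosome 2, 11 to 16 Mb of chromosome 3, 1.5 to 6.0 Mb of chromosome 4 and 9.5 to 14.5 Mb of chromosome 5. The rule gave 404 regions, out of 15727 peaks in that list, 14733 on the chromosome arms and 10776 on the arms shared by all 4 *axe1-5* lists. They made up 3.75% of the shared peaks, and the other 10372 shared regions are used below for comparison. The mirrored rule, with DR5 mock replicate 1 as the starting list, gave 39 of 10356 peaks, or 0.377%. That starting list was shorter, at 12065 peaks. The wild-type mock H4ac libraries kept 5927987 and 3235473 tags, against 7025483 to 14717755 in *axe1-5*. How depth shaped the counts of the rule and of its mirror was not tested. Since the rule used H4ac of both genotypes, these counts are descriptions and were not tested.

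The samples were whole *Arabidopsis thaliana* seedlings aged 12 days, kept for 3 h on 50 µM methyl jasmonate (+MeJA) or on mock plates. The groups were *axe1-5* +MeJA and *axe1-5* mock, then WT +MeJA and WT mock, where WT is the DR5 line in the Col-0 background that the study names as the wild type of *axe1-5*. The mutant was represented by this 1 allele. Each group had 2 libraries of H4ac, and of H3K27me3 there were 2 libraries per group except for 1 of WT +MeJA.

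HISTONE DEACETYLASE 6 (HDA6), the enzyme mutated in *axe1-5*, removes acetyl groups from histones and is known for keeping transgenes and transposable elements silent. Acetylation of H4 marks open chromatin and in plants lies mostly just downstream of the transcription start site (TSS) of active genes. H3K27me3, the trimethylation of lysine 27 of histone H3, is placed by Polycomb complexes on genes that are kept off.

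Sequences of 5 regions are shown as chosen examples, namely single-copy genes with strong H4ac, a tandem array and a duplicated gene pair. Regions outside genes and in pseudogenes are not among them. All are on the plus strand of TAIR10.1, whose nuclear chromosomes carry the TAIR10 coordinates, and were taken from RefSeq. The first 3 are windows of 150 bases around the summit, with CG dinucleotides in capitals. The window of AT5G41660 (chr5:16657303-16657452) lay in a coding exon, held 7 CG dinucleotides and occurred 1 time in the nuclear genome. The window of AT5G26270 (chr5:9206545-9206694) lay in a coding exon, held 6 and also occurred 1 time. The window of AT4G20520 (chr4:11047504-11047653) came from the array, held 14 and occurred 15 times.
AT5G41660: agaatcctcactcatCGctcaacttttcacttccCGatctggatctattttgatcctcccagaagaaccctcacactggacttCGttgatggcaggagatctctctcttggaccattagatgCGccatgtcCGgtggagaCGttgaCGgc
AT5G26270: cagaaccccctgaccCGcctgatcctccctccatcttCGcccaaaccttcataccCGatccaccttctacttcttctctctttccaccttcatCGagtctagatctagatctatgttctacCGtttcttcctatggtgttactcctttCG
AT4G20520: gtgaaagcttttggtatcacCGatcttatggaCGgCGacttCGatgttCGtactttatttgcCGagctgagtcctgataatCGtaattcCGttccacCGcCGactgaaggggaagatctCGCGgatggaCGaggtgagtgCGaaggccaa
The windows of AT3G54730 (chr3:20259297-20259446) and AT2G19850 (chr2:8568741-8568890), both in coding sequence, are set against each other with the base that differs in capitals. They matched at 149 of 150 bases.
AT3G54730: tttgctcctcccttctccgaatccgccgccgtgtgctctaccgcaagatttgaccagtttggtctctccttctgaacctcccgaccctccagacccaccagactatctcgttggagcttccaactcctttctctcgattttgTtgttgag
AT2G19850: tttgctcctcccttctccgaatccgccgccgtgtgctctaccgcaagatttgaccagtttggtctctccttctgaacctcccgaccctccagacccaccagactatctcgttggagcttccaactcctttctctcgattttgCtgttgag

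H4ac libraries held 3235473 to 14717755 tags after duplicate removal and 12065 to 15727 peaks. H3K27me3 libraries were shallower and less even, at 577986 to 8879066 tags. The MACS model gave fragments of 248 to 313 bp for H4ac, but of 52 to 61 bp for 5 H3K27me3 libraries, close to the tag size of 51 bp, and of 209 and 282 bp for the other 2, both from *axe1-5*. Of the seedling markers, 2 to 5 of 5 photosynthesis genes and 2 to 3 of 5 root genes held an H4ac peak per library. No region overlapped any of 24 genes of jasmonate signalling and synthesis, 8 silenced and flowering repressor loci, 6 seed maturation genes, or the marker genes. Only 1.43% of all annotated protein-coding genes were overlapped by a region, so a count of 0 in lists of this size is near the background and is no result about them.

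The regions were among the weaker H4ac peaks of *axe1-5*. Fold enrichment is the ratio of tags at a peak to the level that MACS, the peak caller, modelled from the input, and where several peaks overlapped a region the highest was used. Its median over the 404 regions was 7.56 and 9.69 in *axe1-5* +MeJA and 4.49 and 7.02 in *axe1-5* mock, against 8.98, 11.25, 6.67 and 9.88 over the other shared regions in the same 4 libraries. In the starting list they had a median of 154.5 tags, against 242 in the other shared regions. The mean over the 4 libraries ran from 4.51 to 15.88 among the regions, with a median of 7.31, and the other shared regions had a median of 9.25.

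**Figure D1:**
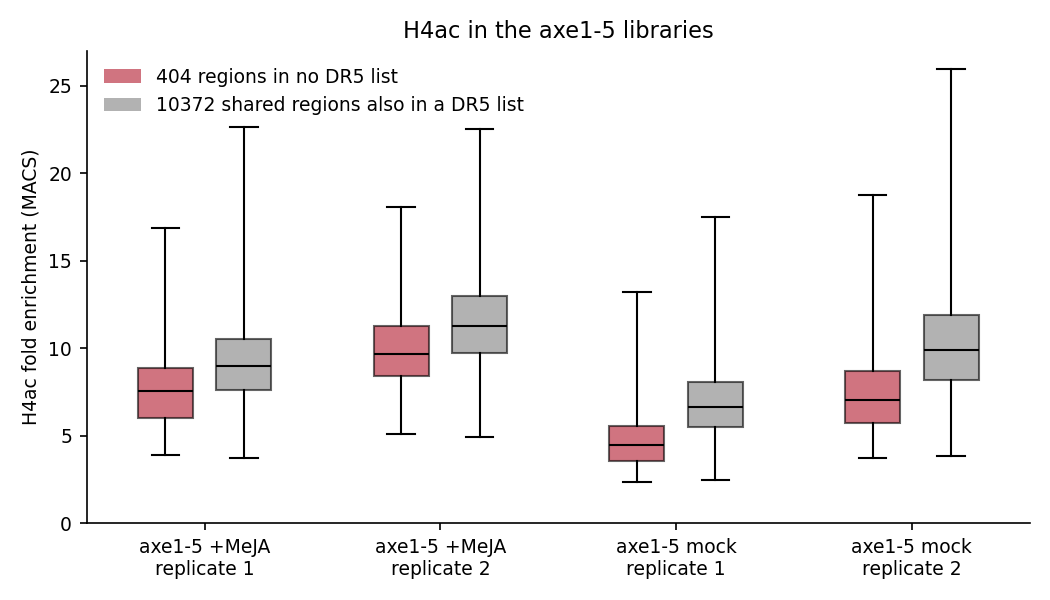
H4ac fold enrichment (MACS, ratio to input) in each *axe1-5* library, for the 404 regions in no WT list and for the 10372 other shared regions. Boxes give the quartiles and the median and whiskers the lowest and highest value; the medians of the 404 regions lie below those of the other regions in all 4 libraries.

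A region in no WT list is not a region without H4ac in WT, because a list holds only peaks past the MACS threshold. To see which regions a WT library could have listed at its depth, the tags that each region had in *axe1-5* mock replicate 1 were scaled to the tags kept in that WT library. The scaled number reached the tenth percentile of the tags of listed peaks for 207 and 215 regions in WT +MeJA and for 150 and 215 in WT mock, and in all 4 libraries for 150 of 404. For the other regions, absence from at least 1 WT list says little about the level there. Tags of WT libraries outside their listed peaks were not analysed here. The nearest WT peak lay at a median distance of 1829 bp, and within 1000 bp for 123 regions and within 100 bp for 15. For 348 of 404 regions, or 86.1%, all 4 *axe1-5* lists had a peak with its own summit inside the region, against 93.1% of the other shared regions. In the rest, the peak of another library reached into the region but had its summit beside it.

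Just outside the rule were 196 regions that exactly 1 WT list overlapped. That list was a WT +MeJA list for 173 of them, with 68 in replicate 1 and 105 in replicate 2, and a WT mock list for 15 in replicate 1 and 8 in replicate 2. The WT +MeJA libraries were deeper, with 8700467 and 9840934 tags kept and 14636 and 14952 peaks. WT mock had 5927987 and 3235473 tags and 12065 and 12862 peaks, so treatment and depth cannot be told apart in this split. The strongest of the 196 was AT5G58400, with 12.91 and 15.73 in *axe1-5* +MeJA and 8.64 and 11.74 in *axe1-5* mock. It had 8.73 in WT +MeJA replicate 2 and no peak in the other WT lists. IPT6 (AT1G25410), which makes cytokinin, had 15.39 and 16.62 in *axe1-5* +MeJA and 4.31 and 12.30 in *axe1-5* mock, against 4.14 in WT +MeJA replicate 2. AT1G32225, AT1G73620 and AT4G32860 completed the 5 strongest, with means of 11.90, 11.57 and 11.43 in *axe1-5*.

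The strongest of the 404 regions included single-copy genes, duplicated genes and sequence outside genes. The highest mean belonged to a region with no annotated gene at its summit (chr5:18470033-18472297), at 14.94 and 16.80 in *axe1-5* +MeJA and 13.24 and 18.53 in *axe1-5* mock. Copies at 2 further places in the genome covered 61.0% of it, so reads from these may have been placed on it. AT5G26270, an uncharacterized protein gene, had 16.86 and 14.91 in *axe1-5* +MeJA and 11.19 and 18.01 in *axe1-5* mock, and the nearest WT peak was 15240 bp away. AT5G41660, also uncharacterized, had 14.06 and 16.03 in *axe1-5* +MeJA and 11.03 and 18.77 in *axe1-5* mock. In these 3 regions the 2 treatments overlapped, every *axe1-5* library was at 11.03 or above, and no H3K27me3 list of either genotype had a peak.

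The paired genes AT3G54730 and AT2G19850, both annotated as transcription repressors, followed. AT3G54730 had 14.41 and 18.05 in *axe1-5* +MeJA and 11.07 and 13.57 in *axe1-5* mock. AT2G19850 had 13.85 and 17.60 in *axe1-5* +MeJA and 8.67 and 15.70 in *axe1-5* mock. Their regions were 98.0% identical over 1291 bp, so reads from one may have been placed on the other, and the values of the pair are not independent. AT1G31990, seventh by mean, rested on peaks beside it, since the fold enrichment was 2.93 in *axe1-5* mock replicate 1 but 18.04 in replicate 2 and 12.45 and 17.85 in *axe1-5* +MeJA, where the summits lay 899 to 930 bp outside the region, and a WT peak was 77 bp away. The non-coding RNA gene AT2G15555 had 11.11 and 13.85 in *axe1-5* +MeJA and 9.59 and 13.16 in *axe1-5* mock.

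Among further strong regions, the pseudogene AT3G24680 had 10.95 and 14.78 in *axe1-5* +MeJA and 8.66 and 12.87 in *axe1-5* mock. The pseudogene AT5G07215 had 12.05 and 15.36 in *axe1-5* +MeJA and 8.41 and 11.43 in *axe1-5* mock. AT1G62460, a pseudogene that held 2 of the regions, had 11.21 and 14.39 in *axe1-5* +MeJA and 7.99 and 12.22 in *axe1-5* mock in the stronger one. Copies at 3 further places in the genome covered 96.8% of that region, so its reads may likewise belong elsewhere. The non-coding RNA gene AT2G08735 and the region at chr5:9090497-9092712 had means of 11.34 and 11. At the lower end were AT3G63380, AT1G70120, the pseudogene AT5G54206, MYB88 (AT2G02820) and RLP41 (AT3G25010), with means of 4.70, 4.67, 4.57, 4.56 and 4.51. MYB88 acts in stomatal development and RLP41 encodes a receptor-like protein. The longest regions were AT2G16670, a pseudogene at 5126 bp, AT1G58037 at 3527 bp, AT4G20700 at 3337 bp, AT3G58380 at 2939 bp and the pseudogene RLP18 (AT2G15040) at 2867 bp.

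The position of the summit set the regions apart from other H4ac peaks. The summit lay outside protein-coding genes in 108 of 404 regions, or 26.7% (95% exact binomial interval 22.5 to 31.3%), against 3.94% of the other shared regions. No gene was annotated at the summit in 52 regions, or 12.9%, against 1.2%. A pseudogene held the summit in 41, or 10.1%, against 1.28%, and a non-coding RNA gene in 15, or 3.71%, against 1.47%. No annotation of transposable elements was used, so these could not be told from pseudogenes, other genes or sequence outside genes. AT5G24275, described as an En/Spm-like transposon, was counted as protein-coding. A summit 0 to 1000 bp downstream of the nearest protein-coding TSS was found in 54.7%, against 86.0%. Summits more than 1000 bp upstream made up 16.6%, against 2.34%, and those more than 1000 bp downstream 22.3%, against 7.05%. Introns held 3.71% and untranslated exons 3.71% of summits, against 11.4% and 15.1%. The intervals cover counting error only, and neighbouring or duplicated regions are not independent, so no test was made.

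**Figure D2:**
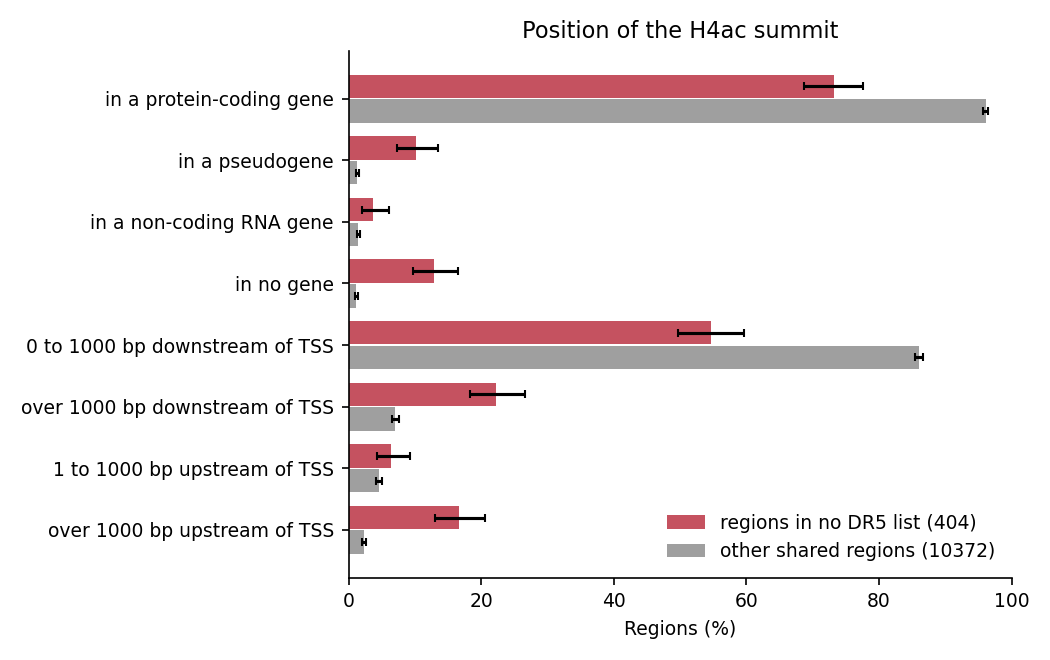
Share of regions (%) by the place of the H4ac summit, for the 404 regions in no WT list (above) and the 10372 other shared regions (below), with 95% exact binomial intervals. Summits outside protein-coding genes reach 26.7% in the 404 regions against 3.94%, and summits 0 to 1000 bp downstream of a TSS are at 54.7% against 86.0%.

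These shares differed at each level of H4ac. Where the mean fold enrichment was 9 and over, 39 of 78 regions had their summit outside protein-coding genes, or 50.0%, against 3.86% of the other shared regions of that level. Below 6, it was 25.9%, against 7.32%. The H4ac levels of the classes overlapped. Pseudogene regions had medians of 8.29 and 10.71 in *axe1-5* +MeJA and 5.31 and 7.98 in *axe1-5* mock, and regions in protein-coding genes 7.43 and 9.61 in *axe1-5* +MeJA and 4.28 and 6.83 in *axe1-5* mock.

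All 5 chromosomes carried regions in like proportion, at 3.56 to 4.33% of the shared peaks of each. Close to the excluded windows they were more frequent, with 15.3% of the regions within 1 Mb of a window edge, against 7.82% of the other shared regions. Another region lay within 20000 bp for 91 of the 404. Of 5 runs of 3 or more, the longest had 16 regions and the next 4 (chr2:6671666-6713849).

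The run of 16 was a tandem array on chromosome 4 (chr4:11044911-11100521). It crossed 24 annotated genes, of which 14 were described as cysteine-rich repeat secretory protein genes and 7 as receptor-like kinase genes. Its sequence repeated every 3259 bp, and the window printed above for AT4G20520 was present unchanged in 14 of the 16 regions. AT4G20520 is annotated as an RNA-binding and RNA-directed DNA polymerase gene. In the array, a median of 100% of the 51-base words of a region, the length of a read, occurred again in the nuclear genome, against a median of 0.0% in the 388 regions outside it. A read of 51 bases from such a word matches several places, so the 16 regions are not independent, and how the placement of these reads affected each region was not tested.

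H4ac was even along the array except at its end. The fold enrichment ran from 4.69 to 6.81 and from 7.07 to 8.58 in *axe1-5* +MeJA replicates 1 and 2, and from 2.54 to 3.89 and from 4.88 to 6.63 in *axe1-5* mock replicates 1 and 2, for 15 of the regions. The last, AT4G20700, stood above them in every library, with 11.50 and 13.20 in *axe1-5* +MeJA and 5.48 and 11.16 in *axe1-5* mock. No WT list had an H4ac peak between the first and the last region. H3K27me3 peaks overlapped 14 and 15 of the 16 regions in *axe1-5* +MeJA and 0 and 8 in *axe1-5* mock, against 1 in each of the 3 WT libraries. Without the array, 388 regions remained, of which 24.7% had their summit outside protein-coding genes.

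**Figure D3:**
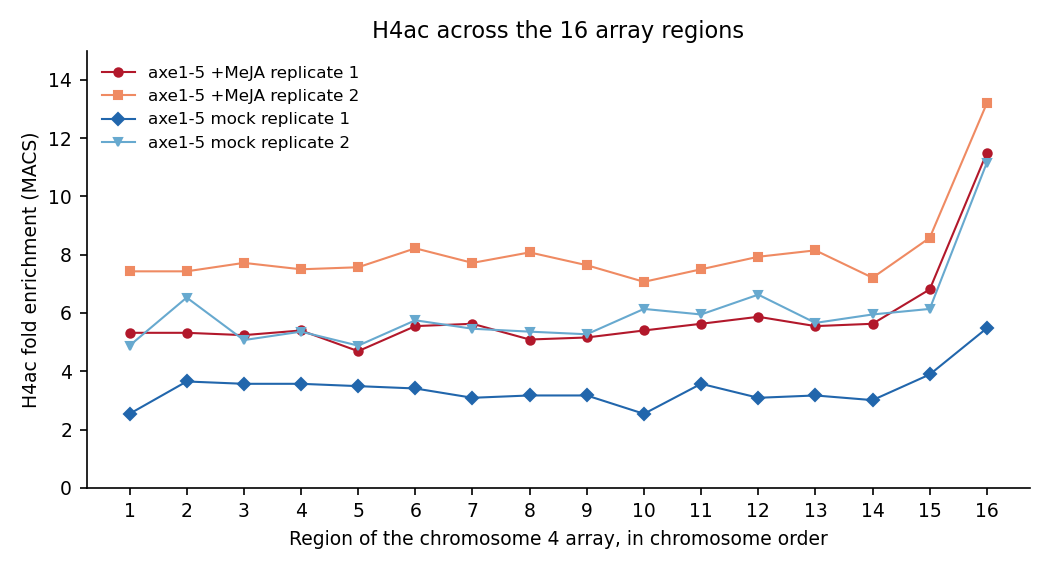
H4ac fold enrichment (MACS, ratio to input) in the 4 *axe1-5* libraries at the 16 regions of the chromosome 4 array, numbered in chromosome order. Lines join regions of 1 library; the level is even over the first 15 regions and rises at AT4G20700 in all 4 libraries.

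Sequence found elsewhere in the genome was more frequent in the regions. A further copy, with at least 90% identity over 200 bp, was found for 100 of 404, or 24.8%, against 8.77% of the other shared regions, and for 21.6% without the array. Within protein-coding genes and outside the array it was 12.7%, against 7.50%, in pseudogenes 41.5%, against 36.1%, and in non-coding RNA genes 73.3%, against 33.6%. Outside genes it was lower, at 47.5%, against 51.6%. Beside the array, 22 regions fell into 10 families that shared sequence with each other. Among them were the pseudogenes AT1G58889 and AT1G59265, identical over 1793 bp, and 2 regions outside genes, chr5:20596113-20597900 and chr5:20629469-20631483, identical over 1372 bp. The first had H4ac of 9.23 and 13.24 in *axe1-5* +MeJA and 9.14 and 15.92 in *axe1-5* mock, and the second 11.18 and 15.72 in *axe1-5* +MeJA and 7.36 and 13.10 in *axe1-5* mock. In both, the treatments overlapped. The region chr1:10929827-10931309, with no gene at its summit and a mean of 14.40, had copies at 105 further places. Among the 304 regions with no further copy, 16.1% had their summit outside protein-coding genes, against 2.60% of such other regions, and 62.5% had it 0 to 1000 bp downstream of a TSS, against 87.4%. GC content differed little, with medians of 39.1% and 38.3%.

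Over all classes of summit position, H3K27me3 peaks were more frequent at these regions than at the other shared regions in all 7 libraries. The share of regions overlapped was 37.4% and 48.0% in *axe1-5* +MeJA and 42.6% and 18.6% in *axe1-5* mock, against 7.18%, 12.7%, 13.1% and 3.20% of the other shared regions in the same libraries. In WT +MeJA replicate 2 it was 7.18%, against 1.58%. In WT mock it was 12.1% and 23.8%, against 2.60% and 6.34%. The ratio of the shares ran from 3.24 to 5.80, and WT libraries, in which the regions had no H4ac peak, lay within that range at 3.75 to 4.66. The excess held in all 7 libraries for summits in protein-coding genes. In the other classes it did not hold in every library. In protein-coding genes the share was 37.8% and 49.3% in *axe1-5* +MeJA and 45.6% and 19.3% in *axe1-5* mock, and 8.45% in WT +MeJA and 12.8% and 26.7% in WT mock, against 1.51 to 12.5% of the other shared regions of that class over the 7 libraries. In pseudogenes the shares were close, with 24.4% against 26.3% in *axe1-5* +MeJA replicate 1 and 34.1% against 33.8% in replicate 2, and no list held a peak at 63.4%, against 60.9%. Outside genes the regions were lower in *axe1-5* mock replicate 1, with 26.9% against 33.1%. They were also lower in WT +MeJA, with 1 of 52 against 4 of 124, and in WT mock replicate 2, with 13.5% against 13.7%. In the other 4 libraries they were higher, with 44.2% and 50.0% in *axe1-5* +MeJA, against 18.5% and 29.8%. Of these 52 regions, 12 lay in the chromosome 4 array. H3K27me3 peaks overlapped 0 of the 16 array regions in *axe1-5* mock replicate 1, and 14 and 15 in *axe1-5* +MeJA. In non-coding RNA genes they were lower in WT +MeJA, with 0 of 15 regions (upper bound of the 95% exact interval 21.8%) against 1.32%, and higher in the other 6. In the weakest bin of H4ac, below 6, the order was turned round in WT mock replicate 2, with 12.9%, against 19.9%.

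**Figure D4:**
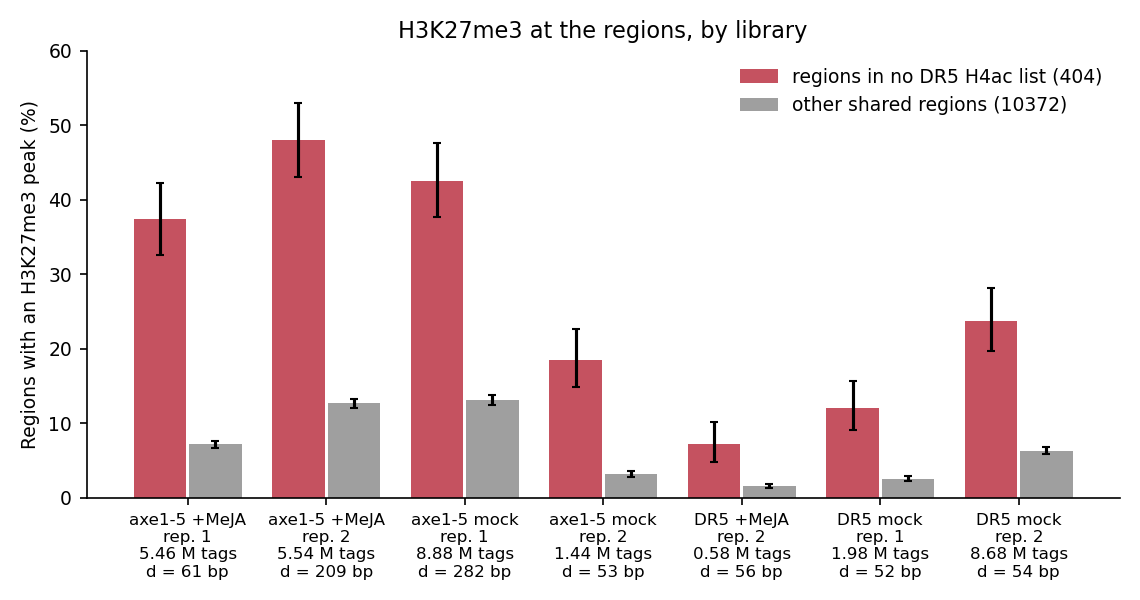
Share of regions (%) overlapped by an H3K27me3 peak in each library, for the 404 regions in no WT H4ac list and the 10372 other shared regions, with 95% exact binomial intervals; tags kept and the fragment length d of the MACS model stand below each library. The 404 regions are higher in all 7 libraries, and WT libraries range from 7.18 to 23.8% against 18.6 to 48.0% in *axe1-5*.

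Between the genotypes, the share averaged 36.6 ± 12.8% in *axe1-5* (SD, n = 4) and 14.4 ± 8.51% in WT (SD, n = 3), with +MeJA and mock libraries pooled. The other shared regions also ran higher in *axe1-5*, at 3.20 to 13.1%, against 1.58 to 6.34% in WT. A difference in this direction was thus not particular to the 404 regions. Tags kept and fragment model moved with the share. The 2 *axe1-5* libraries with long modelled fragments had 2 of the 3 largest numbers of tags kept after duplicate removal among all 7. They covered 15.9 and 17.5 Mb of the arms, against 0.453 to 7.57 Mb in the other 5. Without these 2, *axe1-5* was at 37.4% and 18.6% and WT at 7.18, 12.1 and 23.8%, so that the ranges overlapped. Their part in the difference was not tested. All 4 *axe1-5* lists and no WT list held H3K27me3 at 5 of the 404 regions (1.24%), beside 0.223% of all shared regions, and all 7 lists held it at 25. No H3K27me3 list had a peak at 199 regions, or 49.3%, against 84.8% of the other shared regions.

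The 5 regions in all *axe1-5* lists and no WT list were AT2G24670, a B3 domain protein gene, AT3G22125 with the overlapping AT3G22142, the pseudogene AT3G44705, AT5G18350, a disease resistance gene of the TIR-NBS-LRR class, and chr4:11825516-11826932 outside genes. They were singled out after their values were seen. Regions with H3K27me3 in all lists of a genotype included AT1G12630, annotated as an integrase-type DNA-binding protein gene, where H3K27me3 fold enrichment was 6.20 and 6.99 in *axe1-5* +MeJA and 8.29 and 10.62 in *axe1-5* mock, against 17.69 in WT +MeJA and 14.36 and 15.11 in WT mock. AT5G04970, a pectin methylesterase inhibitor family gene, had 13.77 and 13.52 in *axe1-5* +MeJA and 15.47 and 30.08 in *axe1-5* mock, against 29.20 in WT +MeJA and 18.39 and 16.68 in WT mock. AT3G12440 was likewise in all 7 lists. AT4G20700, at the end of the array, had 14.18 and 10.38 in *axe1-5* +MeJA and no peak and 19.47 in *axe1-5* mock replicates 1 and 2, against 20.85 in WT +MeJA and 14.45 and 14.07 in WT mock. PYL2 (AT2G26040), an abscisic acid receptor, had 6.48 and 4.01 in *axe1-5* +MeJA and 4.73 and 12.36 in *axe1-5* mock, against 10.15 and 10.94 in WT mock and no peak in WT +MeJA. AT3G50580 and AT1G18193 were in 4 *axe1-5* and 2 WT lists, and AT1G31250, AT5G54700 and AT1G51040 in 4 and 1. Fold enrichments of different lists depend on the depth of each and were not compared further. The assay pools all cells of a seedling, so a region with both marks cannot be told apart from marks in different cells.

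Within *axe1-5*, MeJA was compared with mock over all 10776 shared regions by limma on log2 fold enrichment centred on the library median. Every shared region had to hold a peak in these same 4 libraries, and the 404 were also picked for having none in any WT list. How this selection shaped the counts and p-values below was not tested. H4ac was higher with MeJA at 8 of the 404 regions and lower at 0 at an adjusted p under 0.05, beside 0.251% of all shared regions higher and 0.111% lower. At an unadjusted p under 0.05, 123 of the 404 were higher and 4 lower, beside 7.82% of all shared regions higher and 6.57% lower. The median log2 change was 0.27, against -0.01 in the other shared regions, and it was above 0 in 339 of 404. In both sets it fell as the level of H4ac rose, and the 404 were weaker peaks. Where the mean fold enrichment was under 6, it was 0.32, against 0.13. At 9 and over it was 0.16, against -0.05. Regions in exactly 1 WT list had the same median of 0.27, and it was -0.04 in regions of all 4. By place of the summit, it was 0.31 in protein-coding genes, 0.21 outside genes, 0.08 in pseudogenes and 0.05 in non-coding RNA genes. Without centring, the median of all regions was 0.31 and that of the 404 was 0.59, and none of the 404 or of the other regions passed the adjusted threshold (95 of the 404 had an unadjusted p under 0.05).

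Of the 8 regions, the 3 with the largest change had taken their +MeJA value from a neighbouring summit. At AGL93 (AT5G26950), a MADS box gene, fold enrichment was 14 and 14.02 in *axe1-5* +MeJA, against 3.20 and 5.46 in *axe1-5* mock (log2 change 1.43, SE 0.19, limma adjusted p = 0.000466). The +MeJA peaks were 4646 and 4893 bp long with summits 1457 and 1473 bp outside the region, whose length was 1301 bp. AT1G67455 (1.10) and SVL4 (AT5G58050; 1.01) were alike, with summits 1692 and 1641 bp and 1992 and 2017 bp outside. At these 3, the +MeJA value is that of a summit outside the region and cannot be read as H4ac of the named gene.

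In the other 5, the summit was inside the region in all 4 lists. EPR1 (AT2G27380), a proline-rich extensin-like cell wall protein gene, had 8.06 and 7.50 in *axe1-5* +MeJA, against 3.04 and 3.72 in *axe1-5* mock (log2 change 0.89, SE 0.20, limma adjusted p = 0.0401). EXT11 (AT5G49080), annotated as a pseudogene, had 12.13 and 10.67 in *axe1-5* +MeJA, against 3.86 and 6.34 in *axe1-5* mock. The extensin-like AT3G54580 had 8.87 and 8.44 in *axe1-5* +MeJA, against 3.57 and 3.98 in *axe1-5* mock. The groups did not overlap at any of these 3. Of the 51-base words of each region, 4.34% at EPR1, 14.1% at EXT11 and 27.3% at AT3G54580 recur in the genome. ARI4 (AT3G27720), a member of the ARIADNE family of ubiquitin ligases, had 9.70 and 9.37 in *axe1-5* +MeJA, against 3.41 and 5.27 in *axe1-5* mock. AT1G32590, a pseudogene all of whose 51-base words recur in the genome, had 8.71 and 10.92 in *axe1-5* +MeJA, against 3.57 and 5.17 in *axe1-5* mock. In both, every +MeJA library was above every mock library. The calls depended on single libraries, since 0 of the regions were called without *axe1-5* +MeJA replicate 1 and 1 without replicate 2, and 32 without *axe1-5* mock replicate 2. With only summits inside the region counted, 24 of 348 were higher, beside 1.04% of all 10001 regions in that fit. Among them were CML37 (AT5G42380), a calmodulin-like gene, SUC2 (AT1G22710), the phloem sucrose transporter, and CWINV2 (AT3G52600), a cell wall invertase, named after their values were seen. With 2 libraries per group, limma draws the spread of each region towards that of all regions. In the fit with summits inside, the SE was 0.19 at all 24. The p-values thus cover these libraries only and say little of the spread at a single region.

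**Figure D5:**
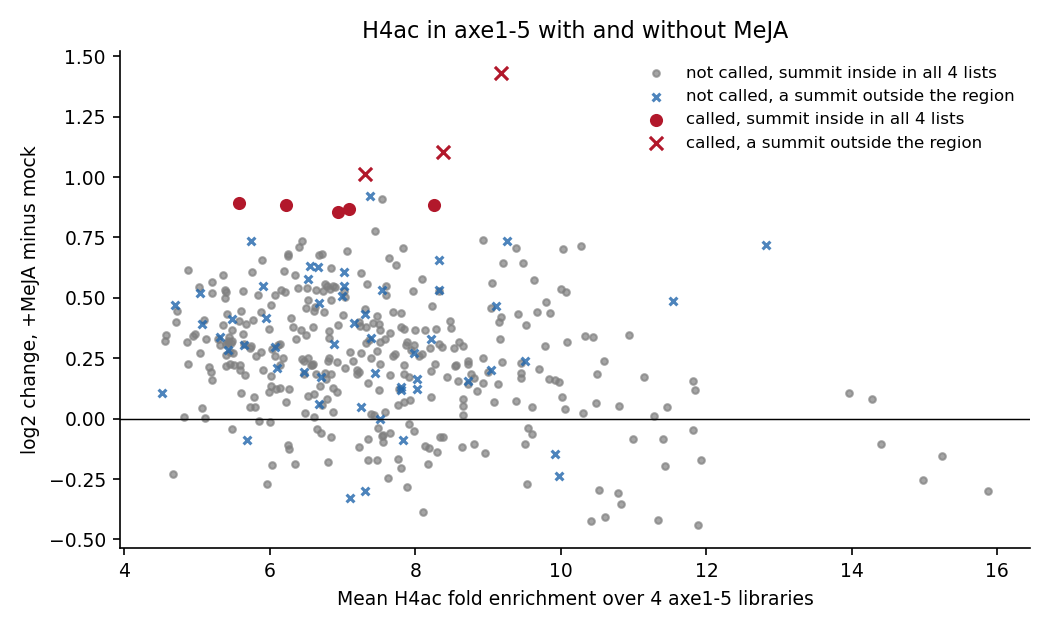
log2 change of H4ac, *axe1-5* +MeJA minus mock, against the mean fold enrichment of each of the 404 regions. Red marks the 8 regions past the limma threshold and crosses the regions where the summit of an overlapping peak lay outside; the 3 largest changes are crosses.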

How the data were processed

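H4ac and H3K27me3 were measured by ChIP-Seq with an input. The authors trimmed reads with Trimmomatic (0.36.5), aligned them to TAIR10 with Bowtie at default parameters and called peaks per library with MACS (1.4.2). Per the file headers, 1 tag was kept per position and the p cutoff was 1e-05. The deposited tag count of a peak is not normalised, the deposited score is the MACS p-value on a scaled negative log10 scale, the deposited fold enrichment is a ratio to the input model, and the deposited FDR is in percent. Of the 8 inputs, 7 served both marks.

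Here, 15 peak lists (8 H4ac, 7 H3K27me3) were used. Genes came from TAIR10.1. Overlap was 1 bp and shares have 95% exact binomial intervals. Copies were found by megablast (BLAST+), and limma (3.58.1) with Benjamini-Hochberg adjustment was run over all shared regions. The selection rule and the limma fit were tested on simulated data, and the copy search was not. Named genes were the 10 highest and 5 lowest regions by mean fold enrichment, the 5 longest, up to 10 with H3K27me3 in all lists of a genotype, up to 10 outside protein-coding genes, up to 5 called in each direction with MeJA, and the 5 strongest with 1 WT list. The members and gene lists were chosen with earlier results of these data known. Alternatives are in the closing section; those on the array, copies, fragment length and summits inside the region were chosen after seeing the data. Reads were not analysed here.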

Additional observations from a re-analysis of the deposited data

Results flagged for a closer look

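Among 39 named regions, 1 had a library far from the other 3. At chr1:10929827-10931309, which has no gene at its summit and 105 further copies, H4ac fold enrichment was 15.18 and 15.55 in *axe1-5* +MeJA and 11.56 and 15.29 in *axe1-5* mock. The gap of *axe1-5* mock replicate 1 to the nearest library was 0.907 of the whole range. Chance flags about 1 in 20 groups of this size when all values come from 1 population. These libraries differed in treatment and in level, so that rate may not apply. Over the 404 regions the median was also lowest in *axe1-5* mock replicate 1, at 4.49, against 7.02 to 9.69 in the other 3 libraries.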

How the results depend on the processing

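The number of regions was 265 with a score of at least 100 and 1157 with mock files only, against 404. Leaving out 1 library gave 412 to 651 regions, the highest without *axe1-5* mock replicate 2. The share of summits outside protein-coding genes, 26.7%, was 33.2% with the score limit and 16.1% without regions that have a further copy. The share 0 to 1000 bp downstream of a TSS, 54.7%, was 62.5% without such regions, and in a 500 bp window it was 37.6%. The H3K27me3 differences moved by less than the spread between libraries under every alternative run. That spread was wide, at an SD of 11.3 and 10.9 points for the 2 differences below. The difference between the regions and the other shared regions, 20.4 percentage points on average, was 17.9 to 22.9 when 1 library was left out. It fell to 14.7 when more of each region had to be covered, to 15.6 without the 2 long-fragment libraries and to 16.7 with an H3K27me3 score of at least 100. The difference between *axe1-5* and WT, 22.3 points, was 18.5 to 28.3 when 1 library was left out and 13.6 without the 2 long-fragment libraries. The number of regions higher with MeJA, 8, was 27 with a replicate block, 0 without centring, 58 with tags scaled to length and depth in place of fold enrichment, 5 with a pseudocount of 1 and 24 with summits inside. Leaving out 1 library gave 0 to 32, and without *axe1-5* mock replicate 1, 7 were higher and 2 lower. Deviations of same-numbered libraries had a correlation of 0.04 across regions. This single value after centring cannot show whether samples of the same number were handled together. Depth limits what absence from a list shows, since the level below the MACS threshold is unknown.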
